A study of Homo sapiens with 4 samples.

Results

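Aminoacyl-tRNA synthetases are the enzymes that join each amino acid to its transfer RNA (tRNA), the step that prepares amino acids for protein synthesis. Human cells have a set of these enzymes for the cytosol and, from mostly separate nuclear genes, a set that is imported into mitochondria. Several cytosolic enzymes are held in a multisynthetase complex by the scaffold proteins AIMP1, AIMP2 and EEF1E1. The transcription factor ATF4, which is translated when amino acids run short or the endoplasmic reticulum is stressed, is known to activate many genes of the cytosolic set. Members are every synthetase gene of the count table and the 3 scaffold genes, found by gene symbol. The rule itself uses no measured value, but the family was chosen with earlier results of these data known. The rule found 41 of 59652 genes: 21 cytosolic synthetase genes, 17 mitochondrial ones, whose symbols end in 2, and the 3 scaffold genes. KARS1 and GARS1 make both the cytosolic and the mitochondrial enzyme from 1 gene and were counted as cytosolic.

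RNA was sequenced from wild-type Huh7 and PLC cells, both hepatocellular carcinoma lines, after 48 h with 5 mM (low-glucose) or 25 mM (high-glucose) glucose added to glucose-free medium with serum. There is 1 library for each of the 4 combinations of line and glucose, so none of the differences below has a replicate check. Counted reads ranged from 16049686 to 30279716 per library, and the libraries were depleted of rRNA. The summed level of 9 hepatocyte and liver tumour markers was 5219 and 5420 FPKM in Huh7 cells and 762 and 1647 FPKM in PLC cells, at 5 mM and 25 mM glucose. TTR was listed at 0.06 and 0 FPKM in PLC cells. The summed level of 4 leukocyte markers was at most 0.127 FPKM, that of 4 fibroblast markers at most 0.612 FPKM and that of 3 endothelial markers at most 2.55 FPKM. FPKM here is a count scaled by gene length (per kilobase) and by the counted reads of its library (per 1e6 reads). In bulk RNA, fewer cells that express a gene and less of its RNA per cell cannot be told apart.

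Cytosolic synthetases as a group took a smaller share of all reads at 25 mM glucose in both lines, while the share of the mitochondrial enzymes moved little. In Huh7 cells the 21 cytosolic genes held 0.509% of counted reads at 5 mM (95% exact binomial interval 0.506 to 0.513) and 0.378% at 25 mM (0.376 to 0.380). In PLC cells they held 0.927% at 5 mM (0.924 to 0.931) and 0.554% at 25 mM (0.551 to 0.558). The 25 mM share was therefore 0.741 of the 5 mM share in Huh7 cells and 0.598 of it in PLC cells. For the 17 mitochondrial genes the shares were 0.0709% and 0.0737% (Huh7) and 0.0860% and 0.0852% (PLC). Such intervals cover counting error only and compare a pair of libraries, not the conditions.

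Each gene was then followed by its ratio, the FPKM at 25 mM over the FPKM at 5 mM after 0.1 was added to both. Its interval comes from the exact interval of the 2 read counts, without the added 0.1. At low FPKM the interval is thus not centred on the ratio. A ratio under 0.67 or over 1.5 with FPKM over 0.5 in at least 1 library of the line, the thresholds of the study, is called lower or higher here. In Huh7 cells 7 members were lower and 0 higher, while 5.71% of the 11684 protein-coding genes with enough FPKM were lower and 5.91% higher. In PLC cells 11 members were lower and 1 higher, against 11.5% and 18.8% of 11686 protein-coding genes. The 5 members lower in both lines were GARS1, SARS1, YARS1, MARS1 and CARS1, all cytosolic, against 1.97% of the 10601 protein-coding genes measured in both. The balance of calls depended on how the libraries were scaled. TMM scaling shifts log2 ratios by -0.04 (Huh7) and -0.12 (PLC). With it, 15 members were lower and 1 higher in PLC cells, and protein-coding genes went from 1345 lower and 2195 higher to 1855 lower and 1725 higher.

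For changes common to the pair of lines, edgeR's quasi-likelihood test was run over 23217 genes with the cell line as a block. The fit has 1 residual degree of freedom, and the lines are not replicate cultures. Its p-values set the common change of the lines against a variation estimated largely across genes. They do not measure the spread between cultures, nor how alike the lines moved. By this test 3 members fell with an adjusted p-value under 0.05 (GARS1, SARS1 and YARS1) and 0 rose, while 0.314% of all genes tested fell and 0.0646% rose. At an unadjusted p-value under 0.05 there were 13 members lower and 0 higher, against 4.36% and 4.14% of all genes. Those 13 were 12 of the 21 cytosolic genes and MARS2. DESeq2 and limma also gave 0 members higher and 5 and 3 members lower after adjustment, and the further DESeq2 calls were MARS1 and CARS1. Over all genes, in either direction, 92 of 23217 passed by limma. By DESeq2 197 passed, with 38660 genes given a p-value. DESeq2 leaves genes with low counts out of its adjustment, so fewer genes were adjusted, and their number was not recorded. The number of adjusted calls depended on the filter, with 7 members without one and 0 with at least 10 reads in every library. In these fits 526 of 38660 and 27 of 16164 genes passed in either direction. RLE size factors gave 1 member and 80 of 23217 genes, and leaving out the cell line block gave 0 members and 0 genes.

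GARS1, which charges tRNA with glycine, had the largest shared decrease of all members. Its level was 22.2 FPKM at 5 mM and 12.1 FPKM at 25 mM in Huh7 cells, and 89.8 and 35.5 FPKM in PLC cells. In each line the low-glucose library was above the high-glucose library, while PLC cells at 25 mM stayed above Huh7 cells at 5 mM. The ratio in Huh7 cells was 0.546 (0.526 to 0.562), that in PLC cells 0.396 (0.387 to 0.404), and the shared log2 fold change was -1.19, with a standard error of 0.20 and an adjusted p of 0.0246 by edgeR. SARS1, the seryl-tRNA synthetase, whose product also feeds the synthesis of selenocysteine on its tRNA, had 30.6 and 14.2 FPKM in Huh7 cells and 104.7 and 56.3 FPKM in PLC cells. Its ratio of 0.465 (0.435 to 0.493) was the lowest of all members in Huh7 cells, and in PLC cells it was 0.539 (0.518 to 0.559). Its shared log2 fold change was -1.08, with a standard error of 0.21 and an adjusted p of 0.0467 by edgeR. YARS1, the tyrosyl-tRNA synthetase, had 25.7 and 13.3 FPKM in Huh7 cells and 56.2 and 28.3 FPKM in PLC cells. Its ratios in the lines were close, 0.520 (0.497 to 0.540) and 0.505 (0.488 to 0.521), with a shared log2 fold change of -1.05, with a standard error of 0.20 and an adjusted p of 0.0465 by edgeR.

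MARS1 and CARS1 were below the ratio threshold in both lines, and their edgeR p-values did not pass adjustment. With DESeq2 both passed, with adjusted p-values of 0.0119 for MARS1 and 0.0105 for CARS1, as they did by edgeR with no filter on low counts. MARS1, the methionyl-tRNA synthetase, had 45.9 and 28.8 FPKM in Huh7 cells and 108.6 and 50.1 FPKM in PLC cells, a ratio of 0.628 (0.606 to 0.650) and 0.462 (0.448 to 0.475). Its adjusted p-value was 0.0770 by edgeR, and 5.05% of its exon bases overlap DDIT3 on the opposite strand, a stress-response gene with ratios of 0.366 and 0.534 and 176 to 819 reads per library. CARS1, the cysteinyl-tRNA synthetase, was less abundant, with 5.90 and 3.05 FPKM in Huh7 cells and 17.5 and 10.0 FPKM in PLC cells. Its ratios were 0.525 (0.475 to 0.564) and 0.577 (0.543 to 0.607), with an adjusted p-value of 0.103 by edgeR.

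The next 7 cytosolic genes had ratios under 1 in both lines with intervals that excluded 1 and unadjusted edgeR p-values under 0.05, and none of them passed adjustment in that fit or by DESeq2. With no filter on low counts, WARS1 and NARS1 passed by edgeR, with adjusted p-values of 0.0307 and 0.0374. AARS1, the alanyl-tRNA synthetase, was called lower in Huh7 cells, where it went from 64.9 to 36.3 FPKM, and not in PLC cells, where it went from 57.9 to 43.97 FPKM. The ratios of AARS1 were 0.560 (0.545 to 0.573) and 0.759 (0.738 to 0.780), respectively. WARS1, the tryptophanyl-tRNA synthetase, which interferon also induces, showed the opposite order, with ratios of 0.699 (0.650 to 0.746) and 0.505 (0.487 to 0.524). It had 12.5 and 8.67 FPKM in Huh7 cells and 71.7 and 36.2 FPKM in PLC cells. For these first 2 genes the larger decrease was thus in different lines.

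NARS1, LARS1, TARS1 and IARS1 passed the ratio threshold in PLC cells and not in Huh7 cells. NARS1, for asparagine, had 71.0 and 51.2 FPKM in Huh7 cells and 165.3 and 88.4 FPKM in PLC cells, with ratios of 0.721 (0.696 to 0.746) and 0.535 (0.519 to 0.551). TARS1, for threonine, had 53.9 and 37.8 FPKM in Huh7 cells and 123.5 and 75.1 FPKM in PLC cells, with ratios of 0.702 (0.674 to 0.730) and 0.609 (0.589 to 0.628). These are among the most abundant synthetase RNAs of PLC cells. LARS1, for leucine, had 10.8 and 8.55 FPKM in Huh7 cells and 18.6 and 10.3 FPKM in PLC cells, with ratios of 0.793 (0.761 to 0.823) and 0.554 (0.531 to 0.573). IARS1, for isoleucine, had 106.6 and 80.5 FPKM in Huh7 cells and 108.4 and 64.9 FPKM in PLC cells, with ratios of 0.755 (0.739 to 0.771) and 0.599 (0.583 to 0.614). LARS1 and IARS1 sit in the multisynthetase complex, as does the last of the 7. EPRS1, a single protein that charges both glutamate and proline, went from 96.9 to 70.2 FPKM in Huh7 cells and in PLC cells from 127.6 to 85.7 FPKM. Its ratio in PLC cells, 0.672 (0.654 to 0.690), lay just outside the threshold of 0.67, and its ratio in Huh7 cells was 0.725 (0.706 to 0.744). Shared log2 fold changes of these 7 genes ran from -0.84 (WARS1) to -0.60 (EPRS1).

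ATF4 binds C/EBP-ATF response elements, whose core can be written TGATGNAA, where N is any base. The promoters given by RefSeq (GRCh38.p14, 250 bases before to 50 bases after each transcription start) were searched for this core on both strands. A promoter was matched for 33 of the 41 members, and the core was present in 8 of them. Of the 13 members with an unadjusted p-value under 0.05, 11 had a promoter and 7 of these held the core, whereas 1 of the other 22 members did. Among protein-coding genes of the table with a promoter, 3.65% of 15150 held the core, as did 4.46% of all 27305 genes with one. These shares are counted by gene, as for the members. Counted by promoter, of which a gene can have several, 3.62% of all 35116 promoters of this length held the core. None of the 6 remaining cytosolic genes with a promoter held it. The windows below are 30 bases long on the strand of each gene, 5′ to 3′, with the core in capitals, and are shown because all but that of YARS2 belong to cytosolic genes that were lower at 25 mM glucose.
GARS1, chr7:30594834-30594863, plus strand: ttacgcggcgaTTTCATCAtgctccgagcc
MARS1, chr12:57488053-57488082, plus strand: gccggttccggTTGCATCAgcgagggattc
CARS1, chr11:3057407-3057436, minus strand: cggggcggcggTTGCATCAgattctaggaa
AARS1, chr16:70289675-70289704, minus strand: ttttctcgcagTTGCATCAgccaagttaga
NARS1, chr18:57621804-57621833, minus strand: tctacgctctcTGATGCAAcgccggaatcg
TARS1, chr5:33440956-33440985, plus strand: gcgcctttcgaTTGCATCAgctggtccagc
IARS1, chr9:92293692-92293721, minus strand: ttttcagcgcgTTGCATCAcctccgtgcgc
YARS2, chr12:32756076-32756105, minus strand: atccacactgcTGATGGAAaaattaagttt

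In 6 of these windows the core began within 33 bases of a transcription start: 33 bases before it in GARS1, 13 in IARS1, 4 in MARS1 and 2 in CARS1, and at base 3 after it in TARS1 and base 15 in NARS1. In AARS1 and YARS2 it began 187 and 197 bases before the start. The core in the form TGATGCAA, read on either strand, was shared by AARS1, CARS1, IARS1, MARS1, NARS1 and TARS1. Within 50 bases of a start, a limit chosen after the positions were seen, the core was found in 6 of 33 members and in 1.02% of the protein-coding genes. SARS1, WARS1, EPRS1 and MARS2, lower at 25 mM as well, had no match in their windows, and YARS1 and LARS1 were not among the matched promoters. A match is a description of these letters and not a measured binding site.

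The other 9 cytosolic genes did not pass the test of a shared change, at an unadjusted p-value either. QARS1, the glutaminyl-tRNA synthetase, was the only member called higher in either line. It had 32.0 and 34.8 FPKM in Huh7 cells and 31.6 and 52.5 FPKM in PLC cells, a ratio of 1.09 (1.04 to 1.14) and 1.66 (1.59 to 1.74). HARS1, for histidine, had ratios of 1.02 (0.946 to 1.09) and 1.41 (1.32 to 1.52). For both genes the ratio was larger in PLC cells, a difference that was not tested across replicates. VARS1, RARS1, FARSA and KARS1, for valine, arginine, phenylalanine and lysine, had ratios from 1.01 to 1.11 in Huh7 cells and from 0.703 to 0.750 in PLC cells. KARS1 had 57.3 and 63.6 FPKM in the Huh7 libraries, at 5 mM and 25 mM, and 65.0 and 48.1 FPKM in the PLC libraries. RARS1 had 36.0 and 37.9 FPKM in the Huh7 libraries and 85.3 and 62.5 FPKM in the PLC libraries. For KARS1 and RARS1 the high-glucose library was thus the higher in Huh7 cells and the lower in PLC cells. FARSB, the partner subunit of FARSA, had ratios of 0.923 (0.879 to 0.970) and 0.862 (0.817 to 0.908). TARS3, a second threonyl enzyme of the cytosol, had ratios of 1.19 (0.997 to 1.43) and 0.982 (0.897 to 1.07), while TARS1 was lower in both lines.

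Counted by intervals alone, 16 members were lower in both lines and 5 were higher in both, against 12.8% and 20.7% of the 10601 protein-coding genes. The 16 were 13 cytosolic and 3 mitochondrial genes, and the 5 were QARS1 and 4 mitochondrial genes. FARSB is the cytosolic gene that joins the 12 described above. Median log2 ratios of the 21 cytosolic genes were -0.41 in Huh7 cells and -0.57 in PLC cells. Over the protein-coding genes the medians were 0.04 and 0.07.

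The mitochondrial enzymes lay on both sides of a ratio of 1. Their median log2 ratio was -0.01 in Huh7 cells, with 9 of 17 below 0, and 0.09 in PLC cells, with 7 of 17 below 0. With TMM scaling the median in PLC cells became -0.028. None of the 17 passed the adjusted test by edgeR, DESeq2 or limma, and 1, MARS2, had an unadjusted p-value under 0.05 by edgeR. MARS2, the mitochondrial methionyl-tRNA synthetase, had 16.1 and 13.0 FPKM in Huh7 cells and 11.1 and 6.90 FPKM in PLC cells. Its ratio was 0.807 (0.741 to 0.877) and 0.627 (0.550 to 0.707), and its shared log2 fold change was -0.57, with a standard error of 0.26 and an adjusted p of 0.563 by edgeR. NARS2 and PARS2, for asparagine and proline, were the other mitochondrial genes with intervals under 1 in both lines, with ratios of 0.783 and 0.761 for NARS2 and 0.772 and 0.715 for PARS2. FARS2, RARS2 and EARS2, for phenylalanine, arginine and glutamate, were among the 4 mitochondrial genes with intervals over 1 in both lines. FARS2 had 2.39 and 3.08 FPKM in Huh7 cells and 2.40 and 3.30 FPKM in PLC cells, with ratios of 1.28 (1.10 to 1.51) and 1.36 (1.17 to 1.62). With TMM scaling the intervals of RARS2 and EARS2 in PLC cells included 1.

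The remaining mitochondrial genes had ratios of 0.873 to 1.12 (Huh7) and 0.755 to 1.39 (PLC), except SARS2 and VARS2. IARS2, for isoleucine, had 48.1 and 50.9 FPKM in Huh7 cells and 61.6 and 59.1 FPKM in PLC cells. SARS2, for serine, was read 71 and 61 times in the Huh7 libraries and 27 and 19 times in the PLC libraries, or 1.07, 0.655, 0.288 and 0.382 FPKM. Its ratio of 0.644 (0.426 to 0.872) in Huh7 cells is the mitochondrial call among the 7 lower members of that line. It was not called with 1 in place of 0.1 added to FPKM, or with FPKM over 1 required in both libraries, either of which left 6 members. Its ratio in PLC cells was 1.24 (0.698 to 2.48). VARS2, for valine, had between 12 and 27 reads per library, and the intervals of its ratios of 0.893 and 1.23 included 1. Its level was 0.07 to 0.19 FPKM, so the added 0.1 sets much of these ratios. Of the exon bases of SARS2, 48.2% overlap another gene of the table on the same strand, and of those of VARS2, 63.0%. How reads of such bases were counted is not given, and its part in these low counts was not tested.

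Enzymes for the same amino acid were compared directly by a quotient, the 25 mM over 5 mM ratio of the cytosolic enzyme divided by that of the mitochondrial one. It was taken from the read counts without the added 0.1, so it differs from the ratios given above for genes at low FPKM. The difference is plain for VARS2, and VARS1 over VARS2 was 1.31 (0.599 to 2.88) in Huh7 cells. The quotient does not depend on the scaling of the libraries. The cytosolic enzyme was lower relative to its partner in Huh7 cells in 11 of 17 pairs with intervals that excluded 1, and higher in 0. In PLC cells it was lower in 15 pairs and higher in 1. The same 11 pairs were lower in both lines. EPRS1 enters 2 of the pairs, and the pairs share libraries, so they are not independent. The intervals hold counting error only. How often such intervals exclude 1 for other pairs of genes was not computed, so no share over all genes stands beside these counts. The pair for alanine, AARS1 and AARS2, had quotients of 0.525 (0.478 to 0.577) and 0.712 (0.647 to 0.783), and the pair for threonine, TARS1 and TARS2, 0.639 (0.558 to 0.732) and 0.436 (0.390 to 0.489). The pair for isoleucine, IARS1 and IARS2, is the most deeply counted, with quotients of 0.714 (0.683 to 0.746) and 0.625 (0.596 to 0.654). The pair with the cytosolic enzyme higher in PLC cells was histidine, for which HARS1 over HARS2 gave 1.07 (0.942 to 1.22) and 1.61 (1.43 to 1.82). In Huh7 cells its interval included 1, as did those for asparagine, arginine, serine and valine. HARS1 and HARS2 lie head to head on chromosome 5 and share 108 exon bases on opposite strands. HARS1 shares a further 7.7% of its exon bases with WDR55 on the opposite strand, which had 905 to 1644 reads per library. Whether such reads entered the HARS1 counts was not tested. For proline the quotient of EPRS1 over PARS2 included 1 in both lines (0.947, 0.777 to 1.15 and 0.947, 0.775 to 1.16).

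None of the 3 scaffold genes passed a ratio threshold in either line, although AIMP1 had a ratio of 0.637 in PLC cells with TMM scaling. AIMP1 had 7.19 and 7.26 FPKM in Huh7 cells and 10.2 and 6.998 FPKM in PLC cells, with ratios of 1.01 (0.940 to 1.08) and 0.692 (0.639 to 0.741). EEF1E1 had ratios of 1.09 (0.936 to 1.27) and 0.837 (0.735 to 0.95), and AIMP2 1.002 (0.905 to 1.11) and 0.966 (0.858 to 1.09). Of the exon bases of AIMP2, 29.1% overlap EIF2AK1, a kinase gene on the opposite strand with 2919 to 6965 reads per library. All 3 scaffold genes had unadjusted p-values above 0.05 by edgeR, with shared log2 fold changes from -0.34 to -0.10. Of the 8 synthetases of the complex, EPRS1, IARS1, LARS1 and MARS1 were among the 12 cytosolic genes with a lower level at an unadjusted edgeR p-value under 0.05, and 4, KARS1, QARS1 and RARS1 among them, were not. Among the 13 cytosolic genes outside the complex, 8 were lower by that measure, which 4.36% of all genes tested met. By catalytic fold, 6 of 9 class I and 5 of 11 class II cytosolic genes met it, as did EPRS1, which joins both folds and was past the ratio threshold in neither line. Medians were -0.19 and -0.51 in Huh7 and PLC cells within the complex and -0.51 and -0.72 outside it, as log2 ratios.

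Levels per length differed widely between members and between lines. The median FPKM of the cytosolic genes was 30.6 and 26.2 (Huh7, 5 mM and 25 mM glucose) and 65.0 and 46.6 (PLC). For the mitochondrial genes it was 6.48, 6.88, 8.01 and 7.97 FPKM in the same order. In Huh7 cells at 5 mM the highest members were IARS1 (106.6 FPKM), EPRS1 (96.9 FPKM) and NARS1 (71.0 FPKM), and in PLC cells at 5 mM they were NARS1 (165.3 FPKM), EPRS1 (127.6 FPKM) and TARS1 (123.5 FPKM). At 25 mM the highest were IARS1 in Huh7 cells (80.5 FPKM) and NARS1 in PLC cells (88.4 FPKM). The highest mitochondrial gene in every library was IARS2, between 48.1 and 61.6 FPKM. The length counts all annotated exon bases of a gene, 20639 for LARS1, 17366 for GARS1 and 14155 for HARS1, which lowers the FPKM of such genes.

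PLC cells had more RNA of several cytosolic enzymes than Huh7 cells at both glucose concentrations. WARS1 was 5.72-fold higher in PLC cells at 5 mM and 4.14-fold higher at 25 mM, TARS3 5.02-fold and 4.16-fold, SARS1 3.42-fold and 3.96-fold, and GARS1 4.04-fold and 2.93-fold. IARS1 and AARS1 were close, with PLC over Huh7 at 1.02 and 0.807 for IARS1 and 0.892 and 1.21 for AARS1. MARS2 was lower in PLC cells, at 0.690 and 0.536 of its level in Huh7 cells. The level of FARSA was 1.29 and 1.45 times that of FARSB in Huh7 cells and 2.85 and 2.48 times in PLC cells, although the proteins form 1 enzyme of equal subunits. These are ratios of FPKM between single libraries of different lines.

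**Figure D1:**
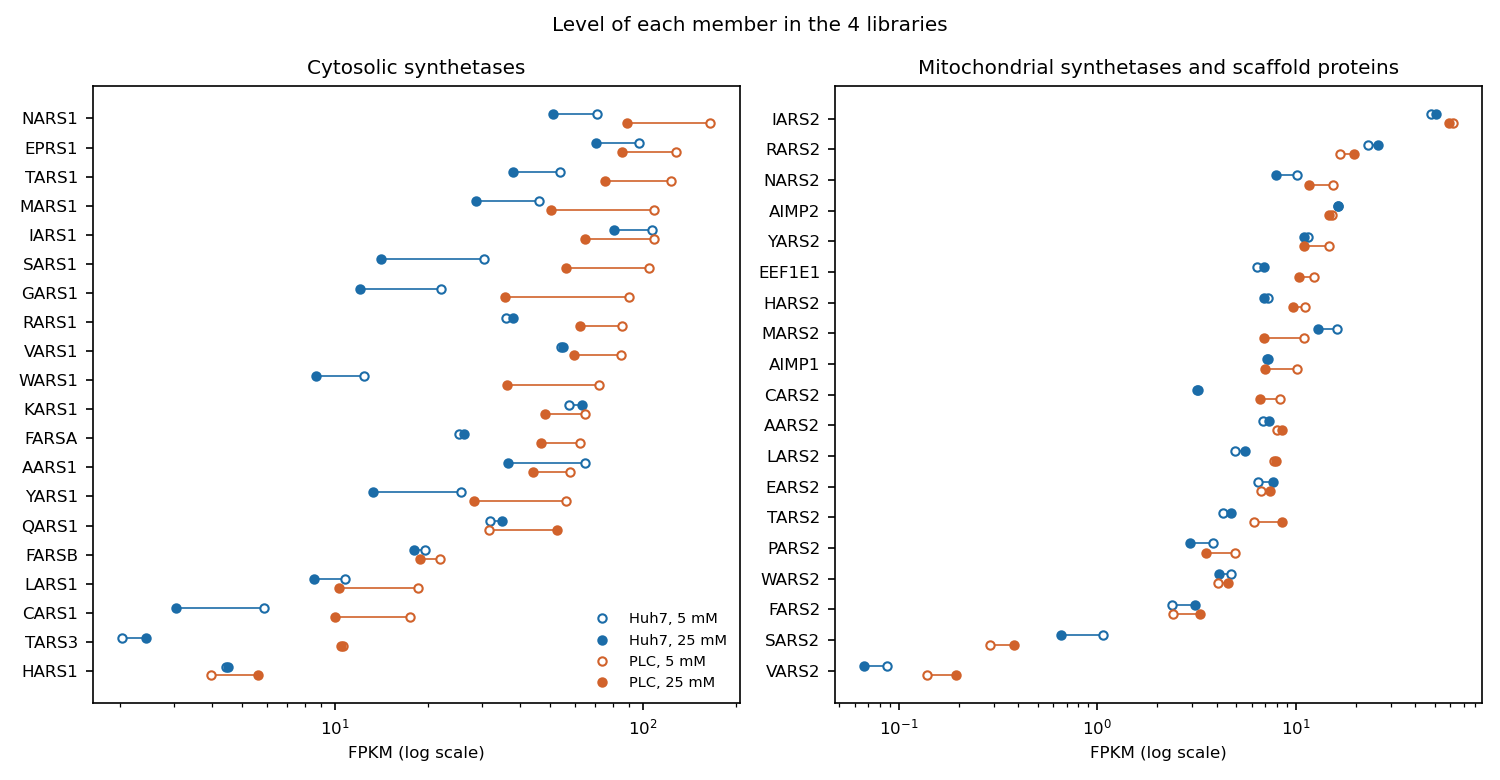
FPKM of 39 members in the 4 libraries on a log axis, with open circles for 5 mM and filled circles for 25 mM glucose, joined within a line. For the 12 cytosolic genes with unadjusted p-values under 0.05 the filled circle lies left of the open circle in both lines, and for WARS1, SARS1 and GARS1 all PLC circles lie right of the Huh7 circles.

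For single members the ratio differed between the lines in both directions. The quotient of the ratio in PLC cells over that in Huh7 cells, again without the added 0.1, was under 1 for LARS1 (0.698, 0.660 to 0.737), GARS1 (0.727, 0.699 to 0.756), WARS1 (0.725, 0.671 to 0.783), MARS1 (0.735, 0.703 to 0.769) and NARS1 (0.742, 0.709 to 0.777). It was over 1 for AARS1 (1.36, 1.31 to 1.41), SARS1 (1.16, 1.08 to 1.25) and QARS1 (1.53, 1.44 to 1.63). For YARS1 it included 1 (0.973, 0.923 to 1.03). These intervals hold counting error only, and a difference between lines cannot be told apart from a difference between single cultures.

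Other genes of translation were taken from lists of related genes. Of 14 genes of the amino acid response, 12 fell with adjusted p-values under 0.05 by edgeR and 0 rose, with a median shared log2 fold change of -1.93. ATF4 itself had 144.3 and 89.1 FPKM in Huh7 cells and 213.2 and 119.3 FPKM in PLC cells, with a shared log2 fold change of -0.85, with a standard error of 0.20 and an adjusted p of 0.103 by edgeR. ASNS, the asparagine synthetase and a textbook ATF4 target, had a shared log2 fold change of -2.47 in the same fit (adjusted p = 0.0158 by edgeR), larger in size than that of any tRNA synthetase. The list was chosen with earlier results of these data known and is not independent evidence of its direction. Of its 13 genes with a matched promoter, 4 held the TGATGNAA core, and 1 held it within 50 bases of a start. Among 13 genes that assist tRNA charging, 0 passed adjustment by edgeR, DESeq2 or limma and 1 had an unadjusted edgeR p-value under 0.05. This was XPOT, the exporter of tRNA from the nucleus, with ratios of 0.675 and 0.774. Of 8 cytosolic elongation and release genes tested, 0 passed adjustment with any of these tools and 3, EEF1A1, EEF1B2 and EEF2, were lower at an unadjusted edgeR p-value under 0.05. EEF1G was listed at 0 reads in all 4 libraries and was not tested. Of 9 mitochondrial translation factors, 0 passed adjustment with any of these tools and 0 had an unadjusted edgeR p-value under 0.05, with a median shared log2 fold change of 0.05.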

How the data were processed

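Members, classes and gene lists were chosen with earlier results of these data known. The authors removed rRNA, built directional libraries and deposited the count of reads per gene, without normalization. HISAT2, featureCounts and the build hg38 are named in the submitters' processing notes, while neither the annotation nor the strand setting of the counting is given in the sources used here. The table also gives the deposited gene length in bases. Of 59657 data lines 59652 were used, since 5 lines form a broken entry for ANK2.

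Library totals scaled the FPKM values. Ratios used an added 0.1, and their 95% intervals are Clopper-Pearson intervals of the 2 counts without it. Quotients of ratios also used the counts without the added 0.1 and have normal intervals on the log scale. The shared change was tested with edgeR 4.0.16 (filterByExpr, TMM, quasi-likelihood, cell line as a block, Benjamini-Hochberg over 23217 genes). DESeq2 1.42.0 and limma 3.58.1 were alternatives. On simulated data with 200 genes changed in both lines, edgeR recovered 2 of them at a 2-fold change, 195 at 4-fold and 200 at 8-fold, with 23525, 23505 and 23381 genes tested and 0, 4 and 10 false calls. The simulated dispersion was set in advance and not estimated from these data, so these recoveries are not the power of the test here. The named genes are all members, with values in every library for called members, for members whose intervals lay on opposite sides of 1 in the lines and for the extremes of each class, and other genes come from 4 lists of translation and amino acid response genes. The classes protein-coding and other were taken by symbol from GENCODE release 44, in which every member lies at the position given by the table. Promoters are those of RefSeq. Values of 2 members are not reported here, although counts and medians over members include them.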

Additional observations from a re-analysis of the deposited data

Results flagged for a closer look

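KARS1, RARS1 and IARS2 moved in opposite directions in the lines, with counting intervals on opposite sides of 1. For KARS1 the ratios were 1.11 (Huh7) and 0.741 (PLC), and the intervals stayed on opposite sides of 1 with TMM scaling. For RARS1 they were 1.05 (Huh7), with an interval that began at 1, and 0.733 (PLC). IARS2 had 1.06 (Huh7) and 0.958 (PLC). In Huh7 cells the RARS1 and IARS2 intervals included 1 with TMM scaling. No test of these differences was run, because there is 1 library for each line and glucose concentration, so the differences were not tested.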

How the results depend on the processing

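Blocking by line already compares glucose within each line, and no pairing by replicate number or leaving out of a replicate was possible, because there is 1 library for each line and glucose concentration. With ratios over 2 or under 0.5, 1 member was lower in Huh7 cells (SARS1), 2 were lower in PLC cells (GARS1 and MARS1), 0 were higher and 0 were lower in both lines. The share of all genes past these limits was not computed. Members that fell by the shared test numbered 1 with RLE size factors, 7 with no filter, 0 with at least 10 counts in every library, 5 by DESeq2 and 0 with no cell line block, where 0 members also had an unadjusted p-value under 0.05. Counts over all genes for these fits are given with the shared test above. In the fits with the block, 12 or 13 members were lower at an unadjusted p-value under 0.05. Adjusted p-values of GARS1 ran from 6.11e-06 to 1 over the 6 alternatives, and its log2 fold change from -1.34 to -1.18. In PLC cells the median log2 ratio became -0.69 for cytosolic and -0.028 for mitochondrial enzymes with TMM scaling. Without members whose exons overlap another gene, which leaves 9 cytosolic and 5 mitochondrial genes, the mitochondrial median was -0.061 and the cytosolic minus mitochondrial difference was -0.51 in PLC cells. Counting every synthetase name ending in 2 as mitochondrial gives the classes already used, so that alternative could not differ. Of the alternative values for counts and medians, 76 were classed as unchanged, but not all of these kept their sign or stayed near the reported value. The mitochondrial median in Huh7 cells went from -0.01 to 0.081 without members whose exons overlap another gene. It was also 0.081 without members that had few reads in any library, which leaves 15 mitochondrial genes. Members lower in PLC cells numbered 15 with TMM scaling and 16 with DESeq2 size factors, against 11. Protein-coding genes lower in PLC cells rose likewise, from 1345 to 1855 with TMM scaling and 1901 with DESeq2 size factors. Of the alternative values for single genes, 8 lost a call (GARS1, SARS1 and YARS1), 6 gained one (CARS1, MARS1, NARS1 and WARS1) and 0 changed sign.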
